A study of Mus musculus with 16 samples.

Results

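The 6 genes described here, Grm2, Grm3, Grm4, Grm5, Grm7 and Grm8, encode metabotropic glutamate receptors. They were taken by symbol from a table of FPKM values (fragments per kilobase of transcript, scaled to the mapped fragments of the library) for CA1, a subfield of the hippocampus, and are 6 of 17986 genes measured in all 10 libraries used. Of the 6 genes, 5 passed the filter on low values (1 FPKM or more in 2 or more libraries), kept by 11892 genes in all, and Grm8 did not. Grm6 was not analysed here.

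The mice were males on a C57Bl6 background, 3 to 6 months old, labelled wild type or Neil3-/-. Neil3 encodes a DNA glycosylase of base excision repair. CA1 was cut by laser from 8 µm sections of unperfused frozen brain, after no intervention (home cage, 2 libraries of each genotype) or after spatial exploration (3 of each). Exploration was 1 week of open field training, 20 min a day, in an arena with sides of 50 cm, and the mice were killed 20 min after the last session. Neil3 itself went against the labels. The 5 libraries with a wild type label had 0 to 0.05 FPKM of it, and the 5 with a Neil3-/- label had 8.35 to 15.22 FPKM. The libraries are therefore called WT-labelled and KO-labelled throughout, and a direction given below is that of the labels. Library numbers were assigned here and only name libraries, and where nothing ties a library to a separate animal the p-values measure only the spread between these libraries. Each environment stands in its own block of the table, so exploration and block cannot be told apart.

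Metabotropic glutamate receptors are G protein-coupled receptors that work as dimers and bind glutamate in a large extracellular domain. Group I, to which Grm5 belongs, acts through Gq, phospholipase C and release of calcium from stores, and sits mostly beside the postsynaptic density. Group II (Grm2 and Grm3) and the group III receptors Grm4, Grm7 and Grm8 act through Gi and Go, lower cyclic AMP, and restrain transmitter release from axon terminals. In the hippocampus Grm5 is the main group I receptor of pyramidal cells and a trigger of long-term depression. Grm2 is best known in dentate granule cells and their mossy fibres, and Grm3 is also made by astrocytes.

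Estimated depth was alike, at 18000000 to 19150000 fragments per library. The summed level of 6 CA1 pyramidal markers was 464 to 620 FPKM. Of 7 dentate granule markers 2 passed the filter, Lct at 1.06 to 22.29 FPKM and Stxbp6 at 0.51 to 1.45 FPKM, while Prox1 reached 0.50 FPKM, C1ql2 0.30 FPKM and Dsp 0.01 FPKM at most. Some libraries stood apart. The summed level of 5 CA2 markers was 254 FPKM in WT-labelled home cage library 1 and 125 to 132 FPKM in the other home cage libraries. After exploration it was 165 to 280 FPKM. Pcp4, of that list, measured 84.32 FPKM in WT-labelled home cage library 1 and 5.05 to 10.66 FPKM in the other home cage libraries. In the exploration libraries it measured 46.28 to 112.58 FPKM. The summed level of 5 choroid plexus markers was 236 FPKM in WT-labelled home cage library 1 and 132 and 108 FPKM in WT-labelled exploration libraries 1 and 2, against 9.4 to 17.7 FPKM in the other 7. KO-labelled home cage library 2 had the lowest Wfs1, a marker of dorsal CA1 pyramidal cells, and the highest Dcn, a marker of ventral CA1.

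Grm5 was the most abundant of the 6 genes. Between genes FPKM corrects only for transcript length, so the ranking and shares given here are approximate. Grm5 made up 69.3% to 78.1% of the summed FPKM of these 6 genes in a library. Grm7 came next at 12.6% to 15.9%. Grm3 held 3.62% to 7.47% and Grm4 1.93% to 4.12%. The order Grm5, Grm7, Grm3, Grm4 was the same in 10 of 10 libraries, although Grm3 exceeded Grm4 by a ratio of only 1.07 in the closest library. The share of Grm2 ran from 0.197% to 5.55%. Grm2 lay above Grm4 in 2 of 10 libraries, both KO-labelled home cage libraries, and above Grm8 in 9 of 10. Grm8 was last or level with Grm2 in each library, at 0.155% to 0.771%.

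**Figure D1:**
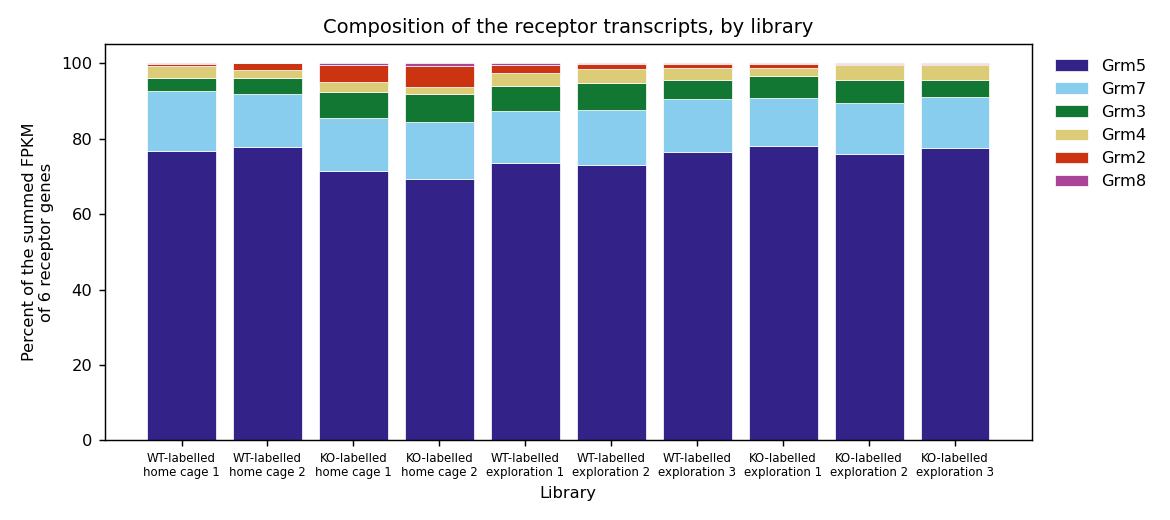
Stacked bars give each receptor gene as a percent of the summed FPKM of 6 receptor genes, for each of 10 libraries. Grm5 takes 69.3% to 78.1% of each bar, and the band of Grm2 is widest in the 2 KO-labelled home cage libraries.

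Gene spans are those of RefSeq on GRCm38.p6. Grm5 (gene ID 108071, chr7:87583981-88135063), the postsynaptic group I receptor, was high in every library. In the home cage it measured 50.83 and 60.08 FPKM in the WT-labelled libraries (mean 55.45 ± 6.54, SD, n = 2) and 55.84 and 58.46 FPKM in the KO-labelled ones (57.15 ± 1.85, n = 2). After exploration it measured 44.93, 44.59 and 46.52 FPKM in the WT-labelled libraries (45.35 ± 1.03, n = 3) and 52.26, 47.92 and 47.33 FPKM in the KO-labelled ones (49.17 ± 2.69, n = 3). The labelled genotypes overlapped in the home cage and did not after exploration, and the 3 lowest values of all were those of the WT-labelled exploration libraries.

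Grm2 and Grm3 are the group II receptors. The 250 bases before the start of each gene are shown because these 2 genes were the members called together between labelled genotypes. They come from RefSeq on GRCm38.p6, read 5′ to 3′ on the minus strand, the strand of both genes. Capitals mark the GC box GGGCGG, the core of the site bound by Sp1 family factors. The windows are chr9:106656110-106656359 for Grm2 and chr5:9725353-9725602 for Grm3.
Grm2: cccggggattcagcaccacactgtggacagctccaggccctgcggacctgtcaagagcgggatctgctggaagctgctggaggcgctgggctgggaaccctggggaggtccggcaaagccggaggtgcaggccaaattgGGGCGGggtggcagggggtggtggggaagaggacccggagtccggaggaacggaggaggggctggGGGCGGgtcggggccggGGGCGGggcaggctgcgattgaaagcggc
Grm3: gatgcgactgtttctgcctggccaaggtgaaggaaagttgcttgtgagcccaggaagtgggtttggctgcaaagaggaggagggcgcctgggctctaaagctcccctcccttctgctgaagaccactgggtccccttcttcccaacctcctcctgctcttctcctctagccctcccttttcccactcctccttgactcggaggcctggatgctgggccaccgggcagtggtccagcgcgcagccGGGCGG
The Grm2 window held 3 GC boxes, whose first bases lie 111, 46 and 29 bases before the start, and the Grm3 window held 1, at 6 bases before the start. A GC box on either strand was present in 32.7% of 32851 windows of the same length. GC content was 71.2% for Grm2 and 62.4% for Grm3, against a median of 52.4% over all windows. Neither window held the other motifs searched on both strands, which were the Egr site GCGNGGGCG (4.7% of all windows), the cyclic AMP element TGACGTCA (1.55%) and the AP-1 site TGANTCA (6.75%). These are matches of letters in these windows and say nothing of binding. Of the 6 members, 4 had a window in the reference table.

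Grm2 (gene ID 108068, chr9:106644534-106656109), a presynaptic receptor that restrains glutamate release, was low in most libraries and high in 2. In the home cage it measured 0.33 and 1.31 FPKM in the WT-labelled libraries (0.82 ± 0.693, SD, n = 2) and 3.57 and 4.68 FPKM in the KO-labelled ones (4.13 ± 0.785, n = 2). After exploration it measured 1.30, 0.72 and 0.66 FPKM with the WT label (0.893 ± 0.353, n = 3) and 0.76, 0.24 and 0.12 FPKM with the KO label (0.373 ± 0.34, n = 3). Both KO-labelled home cage libraries thus lay above the other 8, and the lowest value was that of a KO-labelled exploration library. On a transcript of 4711 nt the highest value corresponds to about 401 fragments (95% Poisson interval 363 to 442, counting error only) and the lowest to about 10 (4.8 to 18.4).

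Grm3 (gene ID 108069, chr5:9485236-9725352), found on astrocytes as well as on neurons, was also highest in the KO-labelled home cage. In the home cage its values were 2.40 and 3.37 FPKM with the WT label (2.89 ± 0.686, SD, n = 2), and 5.31 and 6.30 FPKM with the KO label (5.81 ± 0.7, n = 2). Exploration libraries read 4.13, 4.40 and 2.92 FPKM with the WT label (3.82 ± 0.788, n = 3) and 3.85, 3.74 and 2.68 FPKM with the KO label (3.42 ± 0.646, n = 3). The 2 KO-labelled home cage libraries did not overlap with any other group, while the other 3 groups overlapped with each other.

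Grm7 (gene ID 108073, chr6:110645349-111567230), the group III receptor of the presynaptic active zone, separated by environment. Its home cage values were 10.55 and 10.89 FPKM (WT-labelled, 10.7 ± 0.24, SD, n = 2) and 11 and 12.61 FPKM (KO-labelled, 11.8 ± 1.14, n = 2). Its exploration values were 8.50, 8.86 and 8.57 FPKM (WT-labelled, 8.64 ± 0.191, n = 3) and 8.41, 8.58 and 8.22 FPKM (KO-labelled, 8.40 ± 0.18, n = 3). All 4 home cage libraries exceeded all 6 exploration libraries, and the KO-labelled home cage libraries held the highest values. Home cage and exploration libraries did not overlap for 47.8% (WT label) and 52.1% (KO label) of all tested genes. The share of genes that separate over all 10 libraries was not computed.

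Grm4 (gene ID 268934, chr17:27422387-27513826), another presynaptic group III receptor, overlapped between all groups. It measured 2.07 and 1.58 FPKM in the WT-labelled and 2.03 and 1.63 FPKM in the KO-labelled home cage libraries. After exploration it measured 2.02, 2.24 and 2.00 FPKM with the WT label and 1.49, 2.48 and 2.51 FPKM with the KO label. Grm8 (gene ID 14823, chr6:27275121-28135146), a further group III member, was low, at 0.21 and 0.12 FPKM in the WT-labelled and 0.41 and 0.65 FPKM in the KO-labelled home cage libraries. After exploration it stood at 0.31, 0.23 and 0.15 FPKM (WT-labelled) and 0.15, 0.16 and 0.12 FPKM (KO-labelled). Its highest values were thus those of the KO-labelled home cage libraries. The label difference ran in opposite directions in the home cage and after exploration, so a test averaged over both does not address the home cage alone. For Grm8 the KO-labelled minus WT-labelled difference, averaged over the environments, was 0.139 FPKM, with p = 0.317 in a two-sided exact permutation test within environment (120 arrangements, smallest possible p 0.0167).

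**Figure D2:**
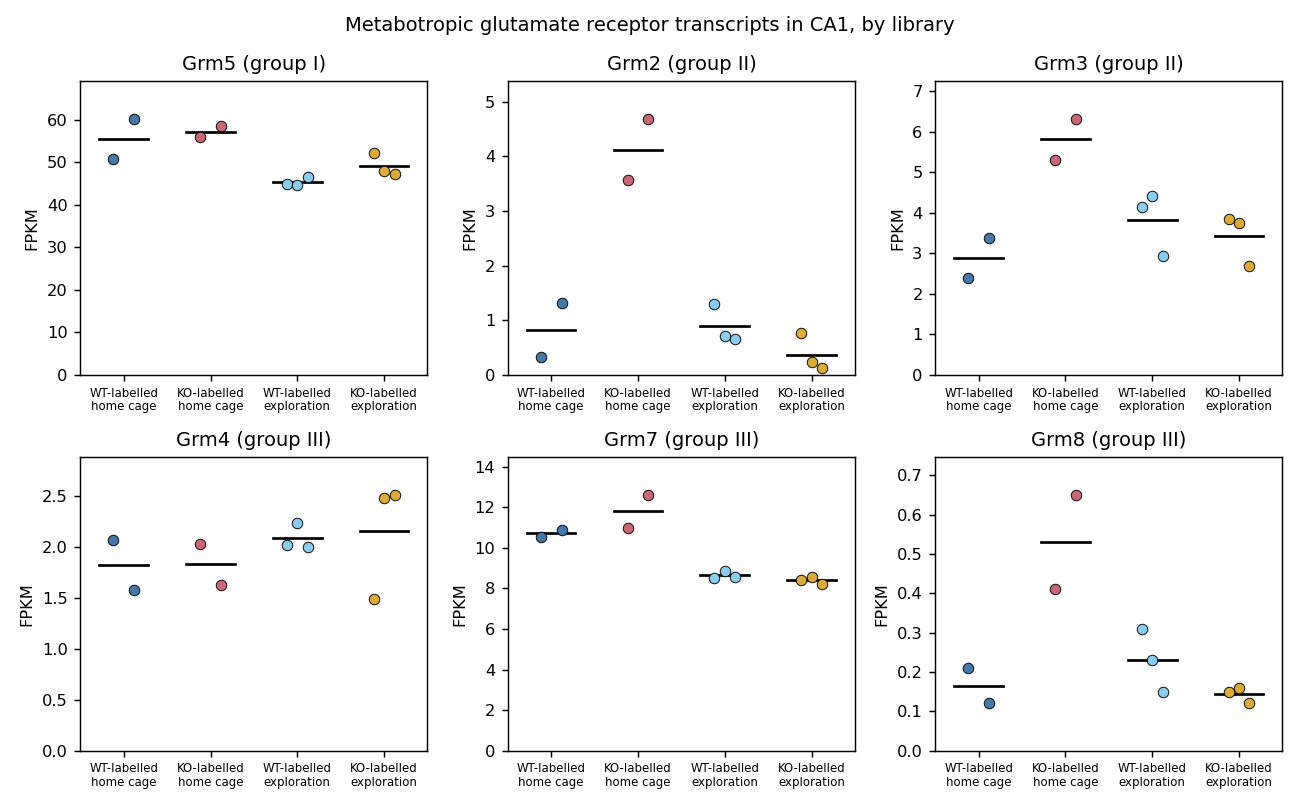
Points are FPKM in single libraries for each of the 6 members, by labelled genotype and environment, and horizontal lines are group means (n = 2 or 3); each panel has its own axis from 0. Grm2, Grm3, Grm7 and Grm8 are highest in the 2 KO-labelled home cage libraries. Grm7 is also lower in all 6 exploration libraries than in the 4 of the home cage.

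The first comparison was between labelled genotypes in the home cage. Both group II receptors were higher in the KO-labelled libraries. Grm2 was higher by 1.54 on the log2(FPKM + 1) scale (SE 0.28, 95% interval 0.94 to 2.14, adjusted p = 0.0188, limma) and Grm3 by 0.82 (SE 0.19, 0.40 to 1.23, adjusted p = 0.0391). That made 2 of 5 tested members called higher and 0 lower, where 3.57% of all tested genes were called (2.12% higher, 1.45% lower). The scale understates the change of a gene as low as Grm2. Grm7 changed by 0.13 (95% interval -0.08 to 0.33), Grm5 by 0.05 (-0.15 to 0.25) and Grm4 by 0.00 (-0.38 to 0.39), with adjusted p of 0.521 to 0.993. The groups did not overlap for Grm2, Grm3 and Grm7, and 46.9% of all tested genes did not overlap either. The call of Grm2 was lost on leaving out library 1 of the WT-labelled or library 2 of the KO-labelled home cage group (log2 change 1.14 to 1.94 over 10 single omissions, adjusted p up to 0.171). That of Grm3 held in 3 of 10 omissions (0.64 to 1.00, adjusted p up to 0.278) and was lost without any one home cage library, WT-labelled exploration library 1 or 2, or KO-labelled exploration library 2. Neither was called with no filter, nor was Grm2 with a pseudocount of 0.1.

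Some markers of CA1 position and of astrocytes moved in the same libraries as Grm2 and Grm3. Wfs1 measured 218.93 and 192.41 FPKM in WT-labelled and 127.30 and 64.88 FPKM in KO-labelled home cage libraries (log2 change -1.17, SE 0.26, adjusted p = 0.0358). Dcn measured 0.20 and 0.69 FPKM against 2.82 and 27.24 FPKM (2.87, SE 0.67, adjusted p = 0.0391). Grp, a neuropeptide gene chosen after its values were seen, measured 1.73 and 9.36 FPKM against 40.28 and 58.83 FPKM (3.22, SE 0.87, adjusted p = 0.068). The calls of Wfs1 and Dcn held in 4 and 3 of 10 omissions. Without KO-labelled home cage library 2, Wfs1 changed by -0.69 and Dcn by 1.42, neither called. They do not stand for the list of 6 CA1 pyramidal markers. Of that list 1 was called higher and 1 lower, and 4 were higher at any size (median 0.16). Fibcd1, of the same list, went opposite to Wfs1. It measured 150.28 and 156.81 FPKM with the WT label and 175.35 and 180.19 FPKM with the KO label (0.21, adjusted p = 0.275, limma). Of 10 astrocyte markers, 3 were called higher, namely Gfap (1.24, adjusted p = 0.011), Aldoc (0.70, adjusted p = 0.0194) and Aqp4 (0.64, adjusted p = 0.0265), and each of these calls was lost on leaving out either of the 2 libraries just named for Grm2 (Aqp4 also without WT-labelled home cage library 2). The summed level of the 10 was 312 to 325 FPKM in WT-labelled and 371 to 401 FPKM in KO-labelled home cage libraries. That of 7 dentate markers was 16.6 to 21.6 FPKM against 3.34 to 7.03 FPKM, most of it Lct (-2.33, adjusted p = 0.0217, held in 7 of 10 omissions). The other tested dentate marker, Stxbp6, was not called (0.30, adjusted p = 0.531, limma). Among those under the filter, Prox1 was higher (0.18 and 0.20 against 0.30 and 0.50 FPKM) and Npnt lower (0.73 and 0.24 against 0.10 and 0.15 FPKM). The lower sum is thus that of Lct and not of the list as a whole. The part of these markers in the receptor differences was not tested. In bulk tissue, fewer cells of a type and less RNA per cell cannot be told apart.

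Grm3 was also set against the astrocyte markers of the same library. Its log2(FPKM + 1) minus the mean log2(FPKM + 1) of the 10 markers was -1.83 and -1.50 in the WT-labelled and -1.33 and -1.24 in the KO-labelled home cage libraries. After exploration it was -1.62, -1.60 and -1.79 with the WT label and -1.70, -1.87 and -2.28 with the KO label. The KO-labelled home cage libraries were the 2 highest of the 10, with WT-labelled home cage library 2 next at -1.50. Those 2 libraries also had the highest Grm3 itself, so these values are only a description. The part of astrocyte content in the Grm3 difference was not tested.

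The second comparison was between labelled genotypes after exploration, and 0 of 5 tested members were called with limma, 0 at an unadjusted p under 0.05. Of all tested genes, 0.597% were called. The log2 change of Grm2 was -0.48 (95% interval -0.97 to 0.02, adjusted p = 0.307), that of Grm3 -0.12 (-0.46 to 0.22) and that of Grm5 0.11 (-0.05 to 0.28). For Grm7 the change was -0.04 (-0.20 to 0.13) and for Grm4 0.02 (-0.29 to 0.33). Grm5 was the only member whose groups did not overlap, where 24.9% of all tested genes did not. Wfs1 differed by -0.07 and Dcn by 0.17 here, neither called, and the summed astrocyte markers were 322 to 391 FPKM with the WT label and 329 to 404 FPKM with the KO label. Averaged over both environments, 0 of 5 members were called with limma (2 at an unadjusted p under 0.05; 2.13% of all genes called, 1.35% lower), with Grm2 at 0.53 (SE 0.18, adjusted p = 0.126) and Grm3 at 0.35 (SE 0.12, adjusted p = 0.138).

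The next comparisons were between exploration and the home cage. They share home cage libraries with those above, so their values are given side by side and are not separate evidence. In the WT-labelled libraries 0 of 5 members were called with limma (2 at an unadjusted p under 0.05), where 6.31% of all genes were (4.29% lower). The log2 change was -0.28 for both Grm5 and Grm7 (SE 0.08 each, adjusted p = 0.0679 and 0.0717), and neither overlapped between the groups, as 47.8% of tested genes did not. Grm2 changed by 0.10 (95% interval -0.46 to 0.65), Grm3 by 0.31 (-0.07 to 0.69) and Grm4 by 0.13 (-0.22 to 0.48). With only the 5 libraries of that comparison in the model, Grm5 and Grm7 were called.

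In the KO-labelled libraries 3 of 5 members fell after exploration and 0 rose, against 28.6% of all genes called (16.6% lower). Grm2 fell by 1.92 on the log2 scale (SE 0.25, adjusted p = 0.00112), Grm3 by 0.63 (SE 0.17, adjusted p = 0.021) and Grm7 by 0.44 (SE 0.08, adjusted p = 0.00439). Not called were Grm5 at -0.21 (SE 0.08, adjusted p = 0.0723) and Grm4 at 0.15 (adjusted p = 0.517). The groups did not overlap for Grm2, Grm3, Grm5 and Grm7, nor for 52.1% of tested genes. The call of Grm2 held in 10 of 10 omissions of a library (-2.11 to -1.76), while those of Grm3 and Grm7 were lost without KO-labelled home cage library 2 (adjusted p 0.189 and 0.0692), and that of Grm3 with no filter as well. Position markers moved here as well, with Wfs1 at 1.10 (adjusted p = 0.00746) and Dcn at -2.45 (adjusted p = 0.0138). Grp, which is not a marker of the lists and was chosen after its values were seen, stood at -3.06 (adjusted p = 0.0165). The calls of Wfs1, Dcn and Grp were each lost without KO-labelled home cage library 2. Of all 6 CA1 pyramidal markers, 4 were called lower here and 1 higher (median -0.47). Their part in the receptor changes was not tested.

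Averaged over the labelled genotypes, Grm2 fell by 0.91 (SE 0.18, adjusted p = 0.00379), Grm7 by 0.36 (SE 0.06, adjusted p = 0.00168) and Grm5 by 0.25 (SE 0.06, adjusted p = 0.00923), where 31.9% of all genes were called (12.6% higher, 19.2% lower). Grm7 and Grm5 were lower with both labels. The average for Grm2 comes from the KO-labelled libraries, at -1.92, and with the WT label Grm2 changed by 0.10. The call of Grm7 held in 10 of 10 omissions (-0.41 to -0.32), and so did that of Grm2 (-1.11 to -0.71). The call of Grm5 was lost without WT-labelled home cage library 2 (adjusted p = 0.0546). Grm3 changed by -0.16 (adjusted p = 0.332) and Grm4 by 0.14 (adjusted p = 0.363). Markers of other cells moved in the same comparison. Called higher were 5 of 10 astrocyte, 4 of 7 oligodendrocyte, 4 of 6 microglia, 3 of 8 interneuron and 2 of 2 tested blood markers, and of 6 CA1 pyramidal markers 3 were called lower and 1 higher. Summed interneuron markers ranged from 215 to 249 FPKM over the 4 home cage libraries and from 280 to 363 FPKM over the 6 exploration libraries, and the blood markers at 69.1 to 109 and 115 to 218 FPKM, without overlap. The other sums overlapped, at 312 to 401 and 322 to 404 FPKM (astrocyte), 143 to 234 and 204 to 376 FPKM (oligodendrocyte), 25.6 to 37.7 and 34.2 to 40.8 FPKM (microglia) and 464 to 596 and 469 to 620 FPKM (CA1 pyramidal). With the WT label alone, 4 of 10 astrocyte, 4 of 7 oligodendrocyte and 3 of 6 microglia markers were called higher, as were 2.02% of all genes. With the KO label alone these counts were 1, 0 and 0, where 12.0% of all genes were called higher. Interneuron markers called higher were 1 of 8 (WT label) and 2 of 8 (KO label), and blood markers 2 of 2 and 1 of 2. The part of these markers in the receptor falls was not tested.

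The difference between the labelled genotypes in the response to exploration was tested as an interaction. Grm2 was the only one of 5 members called, at -2.01 (SE 0.36, 95% interval -2.79 to -1.24, adjusted p = 0.0496), where 0.875% of all genes were called (0.513% lower). Grm3 stood at -0.94 (SE 0.24, -1.47 to -0.40, adjusted p = 0.0819). Grm7 was at -0.16 (-0.42 to 0.10), Grm5 at 0.07 (-0.19 to 0.32) and Grm4 at 0.01 (-0.48 to 0.50). The call of Grm2 lay at the edge of the threshold and held in 4 of 10 omissions (-2.41 to -1.62, adjusted p 0.0107 to 0.219). It was lost without WT-labelled home cage library 1, KO-labelled home cage library 2, WT-labelled exploration library 1 or 2, or KO-labelled exploration library 2 or 3, and also with no filter, a pseudocount of 0.1 or no variance trend.

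**Figure D3:**
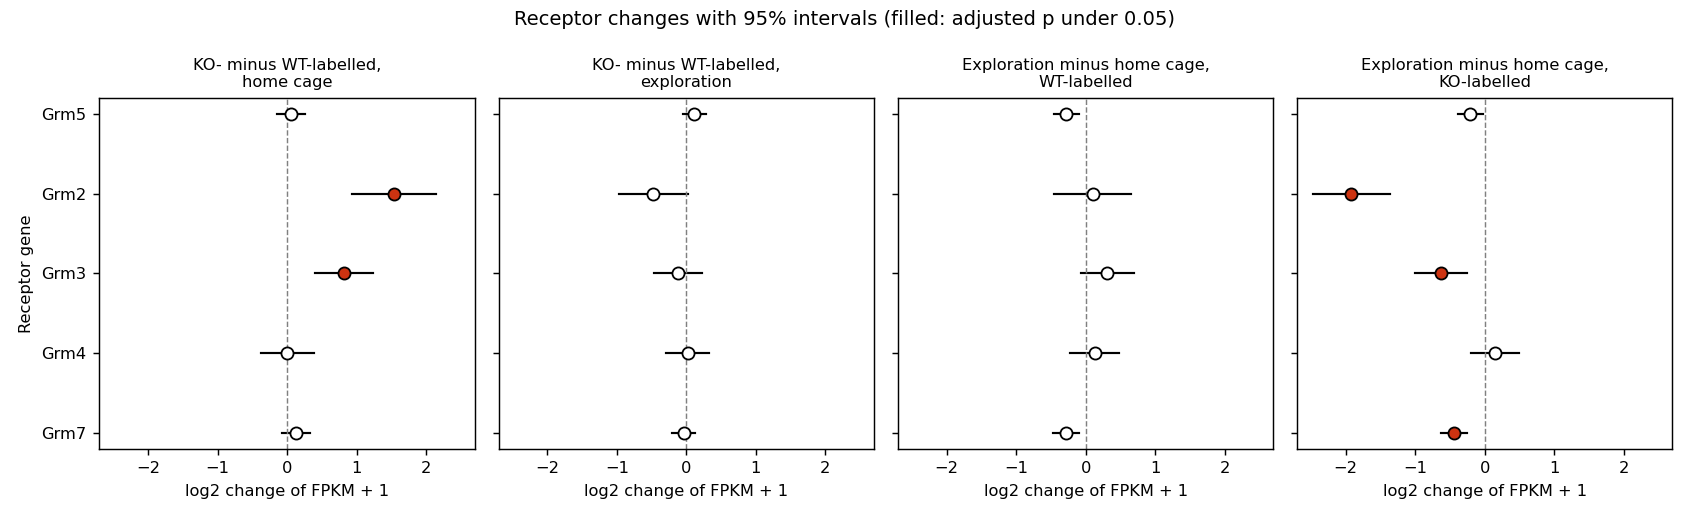
Points are log2 changes of FPKM + 1 for the 5 receptor genes that passed the filter, lines are 95% intervals from limma, and filled points have an adjusted p under 0.05; each panel is a comparison. Grm2 and Grm3 are filled in the home cage comparison of labelled genotypes, and Grm2, Grm3 and Grm7 in the exploration comparison of KO-labelled libraries.

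Genes whose levels ran most like each receptor were listed by Pearson r of log2(FPKM + 1) over the 10 libraries, among 8236 tested genes with a mean of at least 5 FPKM. All of these points share the libraries and their grouping, so the coefficients are descriptions. For Grm2 they were Fezf2 (r = 0.990), a transcription factor of deep-layer cortical projection neurons, Npcd (0.988) and Shisa4 (0.980). Fezf2 measured 15.50 and 22.38 FPKM in WT-labelled and 32.12 and 38.04 FPKM in KO-labelled home cage libraries. It measured 22.86, 19.19 and 16.75 FPKM with the WT label and 17.85, 14.15 and 12.23 FPKM with the KO label after exploration. Its order over the libraries was close to that of Grm2, with the KO-labelled home cage highest. Without those 2 libraries, which lie farthest from the median of Grm2, r was 0.981 for Fezf2, 0.979 for Npcd and 0.923 for Shisa4.

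For Grm3 the leading genes were Fam81a (0.983), the secreted ligand Wnt7a (0.970) and Ap3s2 (0.967), a subunit of the AP-3 adaptor of vesicle sorting. For Grm5 they were Zfp667 (0.966), Epn2 (0.952), an epsin of endocytosis, and Fsd1l (0.951). For Grm7 they were the carboxypeptidase Cpd (0.978), Pcnx (0.971) and Cacna1e (0.968), the R-type calcium channel subunit. For Grm4 they were Fam102a (0.910), the potassium channel subunit Kcnab2 (0.901) and Scrt1 (0.875). These values too were recomputed without the 2 libraries farthest from the median of the receptor. The values for Grm4 were then 0.844, 0.885 and 0.734, in the same order. They were 0.896 to 0.941 for Grm5, 0.945 to 0.976 for Grm3 and 0.932 to 0.945 for Grm7. Between receptors, r over the 10 libraries was 0.850 for Grm2 with Grm3 and 0.823 for Grm5 with Grm7.

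**Figure D4:**
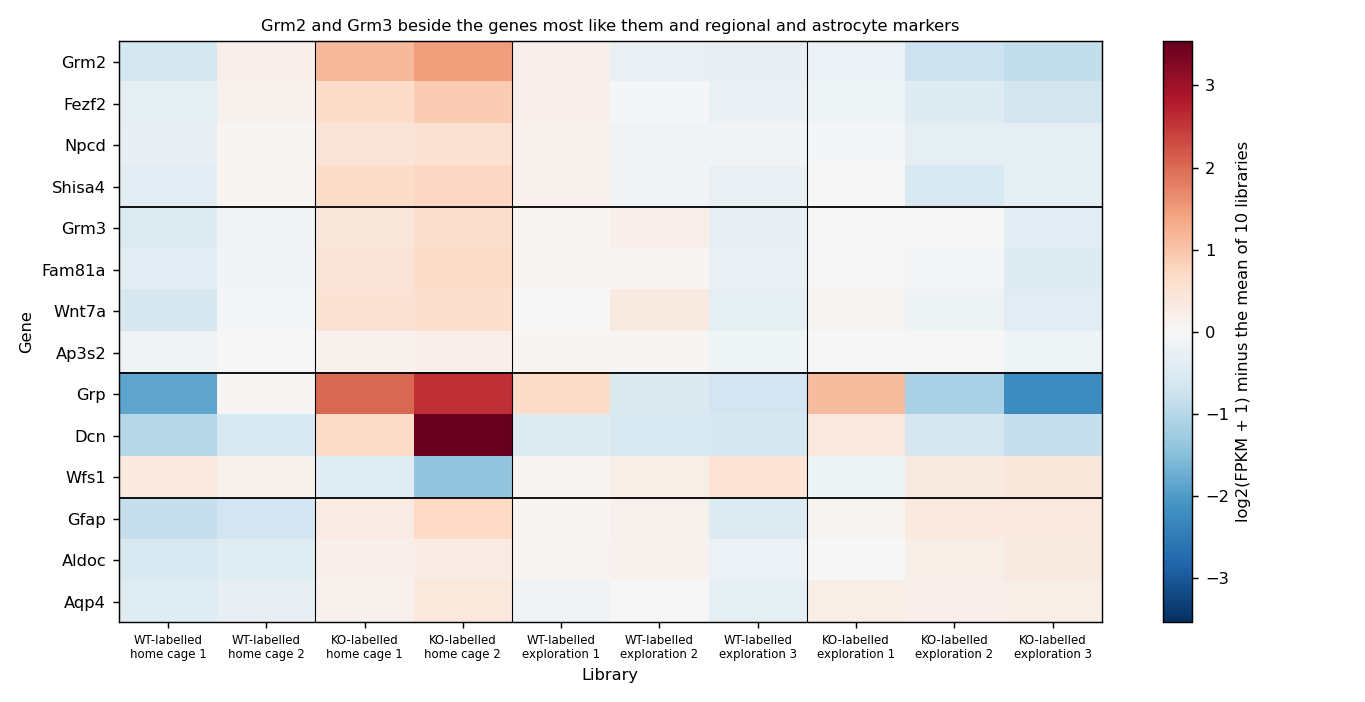
Colour gives log2(FPKM + 1) minus the mean of the 10 libraries for Grm2 and Grm3, the 3 genes most like each, Grp with 2 markers of position (Dcn, Wfs1), and 3 astrocyte markers, with a column per library. The 2 KO-labelled home cage columns are red for Grm2, Grm3 and the genes most like them, and blue for Wfs1.

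Partners of the receptors were read from lists of fixed membership. Of the Gq cascade used by group I, 13 of 16 genes were tested. In the home cage 0 rose and 1 fell between labelled genotypes, namely Prkca (protein kinase C alpha), which fell by 0.68 (SE 0.16, adjusted p = 0.0377), where 3.57% of all tested genes were called. Prkca measured 64.67 and 55.47 FPKM in WT-labelled and 40.92 and 33.31 FPKM in KO-labelled libraries, and its call held in 4 of 10 omissions. The groups did not overlap, nor did they for 46.9% of all tested genes. After exploration 0 were called between labelled genotypes with limma (1 at an unadjusted p under 0.05). The most abundant members given here were the diacylglycerol kinase Dgkz, at 210.76 to 271.01 FPKM over the 10 libraries, and the protein kinase C gene Prkcb, at 171.53 to 214.74 FPKM. Between environments in KO-labelled libraries 2 rose, Prkca by 0.61 and the G protein subunit Gna11 by 0.22, and the store calcium channel Itpr1 fell by 0.63 and the cation channel Trpc4 by 0.44. These 4 of 13 are 30.8%, near the 28.6% of all genes called there. All 4 of these calls were lost without KO-labelled home cage library 2, and that of Gna11 held in 1 of 10 omissions. In WT-labelled libraries Trpc4 fell by 0.36 (adjusted p = 0.0333), a call that held in 4 of 10 omissions, and no other member was called, where 6.31% of all genes were.

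Of the scaffolds of group I receptors and genes of receptor-driven depression, 14 were tested. None was called between labelled genotypes with limma (2 at an unadjusted p under 0.05 in the home cage, 3 after exploration), including Homer1, which anchors Grm5 and stood at 39.73 to 53.24 FPKM over the 10 libraries. Between environments Arc, an immediate early gene needed for depression through group I receptors, rose by 1.65 (SE 0.32, adjusted p = 0.0127) with the WT label and by 1.69 (SE 0.32, adjusted p = 0.00397) with the KO label. Arc measured 186.39 and 68.75 FPKM in WT-labelled and 144.11 and 93.36 FPKM in KO-labelled home cage libraries. In the 6 exploration libraries Arc measured 319.83 to 445.54 FPKM, with no overlap (as for 47.8% of tested genes with the WT label and 52.1% with the KO label). In WT-labelled libraries it was the only call of 14, lost without home cage library 2. That is 7.14%, near the 6.31% of all tested genes called there. In KO-labelled libraries 5 of 14 rose and 0 fell, against 12.0% of all genes called higher. Beside Arc these were the kinase inhibitor Camk2n1 (0.40), the scaffolds Homer3 (0.33) and Homer2 (0.33), and Ncdn (0.32), which encodes norbin, a binding partner of Grm5. All 5 calls were lost without KO-labelled home cage library 2, and those of Homer2 and Ncdn held in 4 and 3 of 10 omissions.

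Of 25 genes of the Gi and Go cascade used by groups II and III, 2 were higher and 1 lower in the KO-labelled home cage libraries (12.0%, against 3.57% of all genes). The adenylyl cyclase Adcy3 was higher by 0.45 (SE 0.11, adjusted p = 0.0471) and the G protein subunit Gnai2 by 0.30 (SE 0.07, adjusted p = 0.0461), while the calcium-stimulated cyclase Adcy8 fell by 0.77 (SE 0.17, adjusted p = 0.0327). Adcy8 measured 7.62 and 10.42 FPKM in WT-labelled and 5.43 and 4.28 FPKM in KO-labelled home cage libraries. These groups did not overlap, nor did they for 46.9% of all tested genes. After exploration Adcy8 measured 3.42 to 5.60 FPKM. The calls of Adcy3 and Gnai2 held in 3 and 2 of 10 omissions, and that of Adcy8 in 5. Adcy8 was also the 1 partner gene called when the labelled genotypes were averaged over environments, at -0.53 (adjusted p = 0.0361, held in 4 of 10 omissions). After exploration 0 of 25 differed between labelled genotypes with limma (5 at an unadjusted p under 0.05). Between environments Adcy8 fell by 0.62 with the WT label (adjusted p = 0.0342, held in 6 of 10 omissions). With the KO label the potassium channel subunit Kcnj9 fell by 0.53, Adcy3 by 0.52 and the G protein subunit Gnaz by 0.38, with 0 genes rising. These 3 of 25 are 12.0%, below the 28.6% of all genes. All 3 calls were lost without KO-labelled home cage library 2.

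Of 6 tested genes that partner group III receptors or act beside them at terminals, 0 were called between labelled genotypes in either environment with limma (3 and 2 at an unadjusted p under 0.05). Nptx1, the most abundant, ranged from 100.71 to 132.88 FPKM, and Elfn1, which binds Grm7 across the synapse, from 1.73 to 2.56 FPKM. In KO-labelled libraries 3 fell after exploration, where 16.6% of all genes did. The adaptor Grip1 fell by 0.88 (adjusted p = 0.00202), Elfn2, which binds group III receptors across the synapse, by 0.67 (adjusted p = 0.00655) and the cannabinoid receptor Cnr1 by 0.47 (adjusted p = 0.0134). Elfn2 measured 20.92 and 24.83 FPKM in the home cage and 11.49, 16.67 and 14.15 FPKM after exploration. The groups did not overlap, nor did they for 52.1% of all tested genes. The falls of Elfn2 and Cnr1 were lost without KO-labelled home cage library 2 (adjusted p 0.103 and 0.191), and that of Grip1 held in 10 of 10 omissions.

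Genes of glutamate supply and clearance, 10 tested, had no call between labelled genotypes with limma (5 at an unadjusted p under 0.05 in the home cage, 2 after exploration). The vesicular transporter Slc17a7 fell by 0.48 after exploration in KO-labelled libraries (SE 0.08, adjusted p = 0.00213), from 865.18 and 893.19 FPKM to 626.61, 619.33 and 639.78 FPKM, a call that held in 10 of 10 omissions. The glutamine synthetase gene Glul ranged from 99.73 to 169.57 FPKM over the 10 libraries. Of 5 tested genes of N-acetylaspartylglutamate, a peptide agonist of Grm3, 0 were called between labelled genotypes with limma (1 at an unadjusted p under 0.05 in the home cage, 0 after exploration). The synthetase Rimkla fell after exploration by 0.57 with the WT label (adjusted p = 0.0287, held in 5 of 10 omissions) and by 0.44 with the KO label (adjusted p = 0.0309). It measured 3.94 to 5.09 FPKM in the 4 home cage libraries and 2.27 to 3.43 FPKM in the 6 exploration libraries. With the KO label the related Rimklb also fell by 0.44, and Nat8l, which makes the N-acetylaspartate used in the peptide, rose by 0.32. The 3 calls with the KO label, of 5 genes and against 28.6% of all genes, were lost without KO-labelled home cage library 2. For the interaction, 0 of 73 tested genes of these 6 lists were called with limma (20 at an unadjusted p under 0.05), against 0.875% of all genes.

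**Figure D5:**
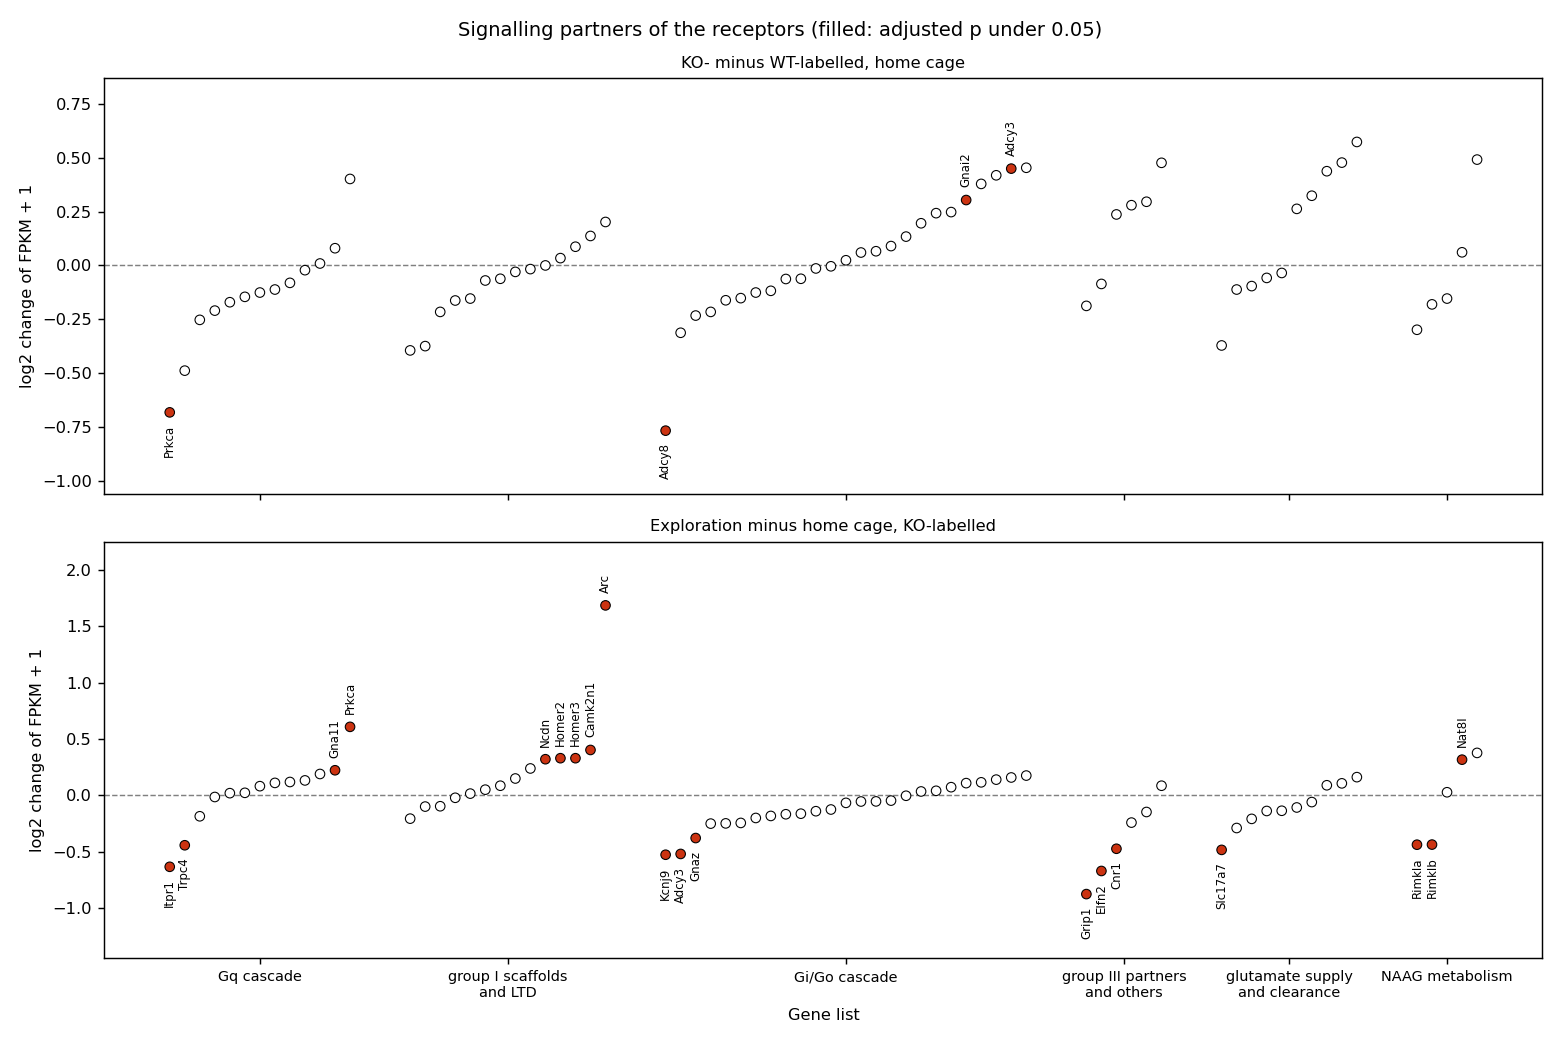
Each point is the log2 change of FPKM + 1 of a tested partner gene, ordered by change within its list; the upper panel compares labelled genotypes in the home cage and the lower panel compares environments in KO-labelled libraries. Filled, named points have an adjusted p under 0.05, 4 in the upper panel and 19 in the lower.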

How the data were processed

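RNA of laser-dissected CA1 was sequenced as paired reads of 100 bp, per the labels. The authors deposited FPKM for each gene; the submitters' processing notes name HISAT, StringTie, GATK, Bowtie2 and RSEM and the build GRCm38 (mm10), with no role or version, and the use of strand is not given in the sources used here. The file holds a block of 6 exploration libraries (19156 genes) and a block of 4 home cage libraries (18257 genes); joint scaling is not stated. Blocks were joined on gene ID, which gave 17986 shared genes. The labels list 16 samples, of which 6 were not analysed here.

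Tests were run with limma 3.58.1 (R 4.3.3) on log2(FPKM + 1) with a variance trend, in 1 model of 10 libraries with 4 group means (6 residual and 5.71 prior degrees of freedom), on 11892 genes that reached 1 FPKM in 2 or more libraries. Benjamini-Hochberg adjustment ran over all tested genes, and calls are genes below 0.05. On simulated data for the home cage comparison (11892 genes), 92 of 100 genes changed by a log2 size of 1 and 99 of 100 changed by 2 were recovered. The simulated noise was independent between genes, had the same spread in every library, and held no shift shared by many genes of a library. Only genes with a mean log2(FPKM + 1) above 1 were changed. The recovery therefore does not measure how well calls hold in the real libraries. FPKM are not counts, so count models were not used. Sequencing depth was inferred from steps between low values (0.08 to 0.6 FPKM), with transcript lengths less 50 nt; with no offset it was 17200000 to 18250000 fragments, and with 100 nt 18850000 to 20050000.

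Members and lists were chosen with earlier results of these data known. Named were the 6 members, Neil3, per list and comparison up to 3 called genes each way (with no call, the 2 of highest mean FPKM), and the 3 genes most like each receptor; Homer2, Ncdn, Homer1, Elfn1 and Grp stand outside this rule. Other settings tried were no filter, 5 FPKM as the filter, 0.1 as the pseudocount, size factors, quantile normalization, no trend, only the groups compared, and leaving out each library. Some genes of the lists are not reported here.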

Additional observations from a re-analysis of the deposited data

Results flagged for a closer look

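The response to exploration differed between the labelled genotypes for Grm2, by a tested interaction of -2.01 on the log2(FPKM + 1) scale (limma, adjusted p = 0.0496), a call that held in 4 of 10 omissions of a library and was lost with no filter, a pseudocount of 0.1 or no variance trend. Its home cage mean was 0.82 FPKM with the WT label and 4.13 FPKM with the KO label, and its exploration means were 0.893 and 0.373 FPKM. The same interaction was called for Bok, a gene of the CA3 marker list, at 1.84 (limma, adjusted p = 0.0496), and held in 2 of 10 omissions of a library. Bok measured 15.59 and 6.44 FPKM in WT-labelled and 4.53 and 4.99 FPKM in KO-labelled home cage libraries, 12.88 to 19.76 FPKM in WT-labelled and 26.82 to 32.43 FPKM in KO-labelled exploration libraries. Bok does not stand for that list: of 3 tested CA3 markers it was the only 1 with a positive interaction, and their median was -0.15. Grik4, of the same list, measured 3.23 and 2.72 FPKM in WT-labelled and 5.79 and 8.49 FPKM in KO-labelled home cage libraries, opposite to Bok. The part of Bok, and of the other CA3 markers, in the result for Grm2 was not tested.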

How the results depend on the processing

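Of 566 recomputed log2 changes of receptors, 514 kept their direction and their side of the threshold, 25 lost and 6 gained a call and 21 changed sign, 0 of the last with a call in the main model. The count of members called in the home cage comparison (2) was 1 with a pseudocount of 0.1, 0 with no filter and 1 with a filter of 5 FPKM, which leaves Grm2 untested and which Grm3 passes only through the 2 KO-labelled home cage libraries where it is high. For the interaction (1) it was 0 under the same 3 settings and 0 with no trend. For exploration with the WT label (0) it was 1 with quantile normalization and 2 with only the groups compared. Genes called over the table were, with no filter, 27 (home cage, main 425), 10 (labelled genotypes after exploration, 71), 47 (averaged, 253), 440 (exploration with the WT label, 750) and 0 (interaction, 104). With a filter of 5 FPKM they were 492 (exploration with the WT label) and 68 (interaction), and with a pseudocount of 0.1 they were 0 (interaction). With no trend they were 37 (labelled genotypes after exploration) and 0 (interaction), with quantile normalization 427 (averaged), and with only the groups compared 36 (labelled genotypes after exploration), 1690 (exploration with the WT label) and 1705 (with the KO label, 3400). The cause of these shifts was not tested. Leaving out 1 library gave 0 to 2 members called in the home cage, 0 to 1 (WT label) and 1 to 4 (KO label) between environments and 0 to 1 for the interaction. Over the table it gave 13 to 588, 17 to 102 and 28 to 319 genes for the labelled genotypes (home cage, exploration, averaged), 87 to 1004, 535 to 3597 and 1927 to 4266 for exploration (WT label, KO label, averaged) and 0 to 462 for the interaction. Uncalled receptor changes that changed sign on leaving out a library were, for the home cage, Grm5 (-0.0713 to 0.166) and Grm4 (-0.121 to 0.13). After exploration they were Grm4 (-0.0676 to 0.18) and Grm3 (-0.262 to 0.00718), and for the averaged genotypes Grm4 (-0.052 to 0.0922) and Grm7 (-0.00107 to 0.0897). For exploration it was Grm2 with the WT label (-0.303 to 0.494), and for the interaction Grm4 (-0.113 to 0.176) and Grm5 (-0.0524 to 0.185). The share of calls that were higher moved from 36.4% to 50.4% (averaged genotypes, quantile normalization), from 42.0% to 54.4% (exploration, KO label, size factors) and from 39.7% to 51.8% (exploration averaged, size factors). No paired analysis was possible because nothing in the labels ties libraries across groups. At this depth the lowest Grm2 value rests on about 10 fragments, while its WT-labelled home cage libraries (about 28 and 110) differ by more than counting error.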
